A study of Danio rerio with 3 samples.

Results

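Complement is a set of blood and tissue proteins that tag microbes and dying cells for uptake and can open pores in membranes. C1q is the recognition molecule that starts its classical route, and it is assembled from A, B and C chains encoded by c1qa, c1qb and c1qc. In mammals C1q is made mostly by macrophages and related cells, whereas hepatocytes secrete most other complement proteins. Among those are factor B (cfb), the protease zymogen of the alternative route's C3 convertase, and C9 (c9), which polymerises into the membrane pore. The genes c1qa, c1qb, c1qc, cfb and c9 were taken by name from a table of 14428 zebrafish genes, and all 5 were present. They were chosen by their FPKM in these same libraries, which was already known to differ, so the levels that follow are a description and carry no test.

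RNA came from untreated mpeg1:mCherry; mpx:EGFP transgenic (wild-type) zebrafish embryos at 72 hours post fertilization, all carrying both transgenes. About 1000 embryos were pooled, dissociated and sorted into mCherry+ cells, EGFP+ cells and cells with neither colour (double-negative), with more than 50000 cells and 1 library for each. The mpeg1 promoter drives mCherry in macrophages and the mpx promoter drives EGFP in neutrophils. The double-negative population is a mixture of all remaining embryonic cell types, so its values are averages over many tissues, and a gene of a rare tissue is diluted there. With 1 library per population there is no replicate error, no difference was tested and no p-value is given. In a sorted bulk library, fewer cells of a type and less RNA per cell cannot be told apart.

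Expression is given in FPKM, a count of fragments corrected for transcript length and library size, so genes of the same library can be compared. Between libraries FPKM is relative, so a comparison also depends on the scaling. Ratios are log2 of (FPKM + 1), a scale that shrinks the differences of weakly expressed genes. All 5 genes were among the 12285 whose FPKM reached 1 somewhere. A gene passes through 1 library alone, so passing says nothing about the others. The genes cfb and c9 reached 1 in all 3 libraries and c1qc in mCherry+ and EGFP+ cells. The genes c1qa and c1qb did so in mCherry+ cells only. Summed over genes, the FPKM came to 571639 (mCherry+), 696949 (EGFP+) and 356886 (double-negative). Values of 0 are read only as listed at 0. Read depth could not be recovered and is unknown, so values below an FPKM of about 1 have no known precision. The genes behind the reporters were looked at first. The macrophage gene mpeg1 was at an FPKM of 1396 in mCherry+, 9.92 in EGFP+ and 2.84 in double-negative cells. The myeloperoxidase gene mpx was at 55.8, 12480 and 3.10 in the same order.

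The 3 C1q subunit genes were high in the mCherry+ library and close to the bottom of the scale in the others. The A chain gene c1qa had an FPKM of 58.1 in mCherry+, 0.682 in EGFP+ and 0.259 in double-negative cells. The B chain gene c1qb had an FPKM of 43.4 in mCherry+, 0.592 in EGFP+ and 0.128 in double-negative cells. The C chain gene c1qc was the highest of the 3, with an FPKM of 146 in mCherry+, 1.03 in EGFP+ and 0.723 in double-negative cells. Every C1q value in the mCherry+ library thus lay above every C1q value in either other library. The summed FPKM of the 3 genes was 248 in mCherry+, 2.3 in EGFP+ and 1.11 in double-negative cells.

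The 2 genes called liver-type were highest in the double-negative library instead. That mixture does not separate liver from other tissues, and the name rests on background knowledge. The factor B gene cfb had an FPKM of 72.8 in double-negative cells, 3.05 in mCherry+ and 1.75 in EGFP+ cells. The pore component gene c9 had an FPKM of 54.1 in double-negative cells, 2.84 in mCherry+ and 4.03 in EGFP+ cells. Both were high in the double-negative library and low in both reporter libraries, and the lower of the reporter libraries was EGFP+ for cfb and mCherry+ for c9. Their summed FPKM was 127 in double-negative cells against 5.89 in mCherry+ and 5.78 in EGFP+ cells.

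**Figure D1:**
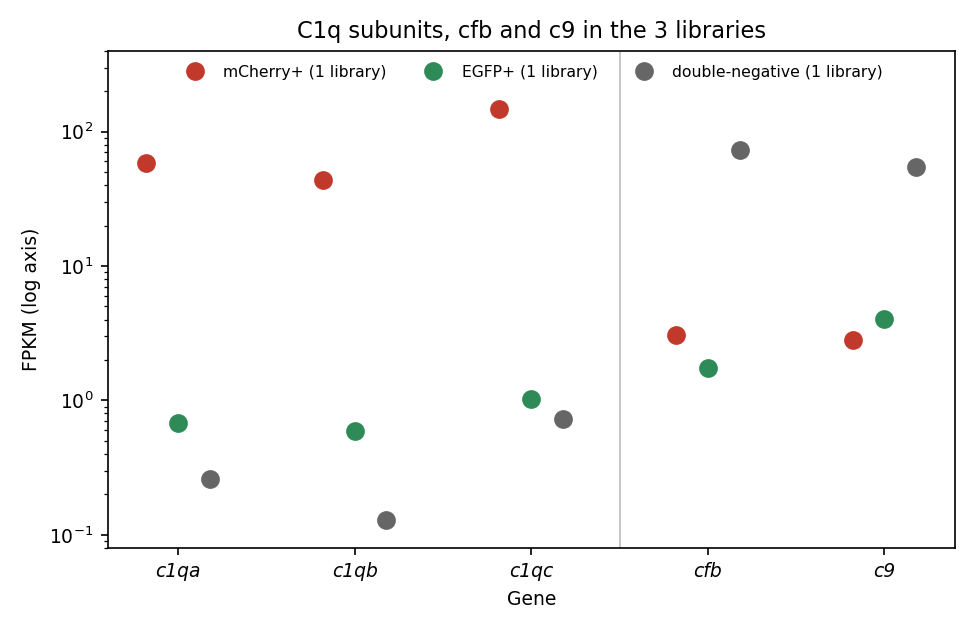
FPKM (log axis) of the 5 genes in each of the 3 libraries; a point is 1 library. The C1q subunits stand between 43.4 and 146 in mCherry+ cells and at 1.03 or below elsewhere, whereas cfb (72.8) and c9 (54.1) stand highest in double-negative cells.

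Expressed as ratios of mCherry+ over double-negative cells, the log2 value was 5.55 for c1qa, 5.30 for c1qb and 6.42 for c1qc. For cfb it was −4.19 and for c9 −3.85. The median of the C1q genes exceeded the mean of cfb and c9 by 9.57 on the log2 scale. The median of this ratio over all 12285 genes was −0.04, which is a level for single ratios and no background for that gap. All 3 C1q genes passed 4-fold upwards in mCherry+ cells, a size reached by 8.18% of all genes, and both cfb and c9 were at least 4-fold lower, as were 7.36% of all genes (11.3%, 11.4% and 15.3% after median-ratio, housekeeping and equal-sum scaling). Since these ratios chose the genes, nothing is read from the counts. In the ranking of all genes by this ratio, c1qc was number 56 from the top, c1qa number 93 and c1qb number 114, while cfb was number 45 and c9 number 68 from the bottom.

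The ratio of mCherry+ over EGFP+ cells separated the C1q genes from cfb and c9 in another way. The log2 value was 5.13 for c1qa, 4.80 for c1qb and 6.18 for c1qc, and 3 of 3 were at least 4-fold higher in mCherry+ cells, against 3.90% of all genes. The C chain gene c1qc was number 16 of all genes in this ranking, c1qa number 48 and c1qb number 57. For cfb the log2 value was 0.56 and for c9 it was −0.39, so neither passed 4-fold and their signs differed. A set of 50 housekeeping genes had a standard deviation of 0.56 in this ratio, so the cfb value was about as large as that scatter and the c9 value smaller. These housekeeping ratios ran from −2.65 to 0.75 around a median of −0.02, so the lowest of them widened the standard deviation. The cfb value was 0.61 after median-ratio scaling, 0.72 at equal FPKM sums and 0.77 with a pseudocount of 0.1.

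In EGFP+ cells over double-negative cells, cfb had a log2 value of −4.75 and was the number 7 gene from the bottom of all 12285. The value for c9 was −3.45, number 59 from the bottom. Both were thus at least 4-fold lower in EGFP+ cells, as were 5.38% of all genes, a share that became 10.5%, 9.99% and 18.1% under median-ratio, housekeeping and equal-sum scaling. The C1q genes showed small positive values of 0.42 for c1qa, 0.50 for c1qb and 0.24 for c1qc. The housekeeping genes had a median of 0.41 and a standard deviation of 0.76, widened by a lowest ratio of −2.84. Their median FPKM was 45.0 in EGFP+ and 38.9 in double-negative cells, so their scatter does not measure that of the C1q genes. The C1q FPKM values lie near or below the pseudocount of 1 in both libraries. With a pseudocount of 0.1 the log2 values were 1.12 for c1qa, 1.60 for c1qb and 0.46 for c1qc. When the libraries were given equal FPKM sums, c1qc turned to −0.22. The mCherry+ and EGFP+ comparisons use the same double-negative library, so they are not independent. All 3 C1q genes were at least 4-fold above both other libraries in mCherry+ cells (2.60% of all genes), and cfb and c9 were so in double-negative cells (3.24% of all genes).

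Among themselves the C1q subunits were not equal in level per length. In mCherry+ cells the c1qc FPKM was 2.52 times that of c1qa and 3.37 times that of c1qb, and c1qa was 1.34 times c1qb. The order c1qc, c1qa, c1qb recurred in the EGFP+ library, where c1qc was 1.51 times c1qa, and in the double-negative library, where it was 2.79 times c1qa. The last pair of ratios rests on FPKM values near or below 1. In the RefSeq annotation of assembly GRCz12tu the 3 genes lie next to each other on 1 chromosome, in the order c1qb, c1qc, c1qa with no other protein-coding gene between them. The ratio of cfb to c9 was 1.34 in double-negative, 1.08 in mCherry+ and 0.434 in EGFP+ cells, with less cfb and more c9 in EGFP+ than in mCherry+ cells.

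The low C1q values outside the mCherry+ library were set beside genes used as macrophage markers. In EGFP+ cells, c1qc stood at 0.703% of its mCherry+ FPKM, c1qa at 1.17% and c1qb at 1.37%. The macrophage gene mpeg1 stood at 0.711%, the receptor gene csf1ra, which encodes the receptor for macrophage colony-stimulating factor, at 0.384%, and the progranulin gene grna at 1.18%. Over 21 macrophage genes at or above an FPKM of 5 in mCherry+ cells the median was 2.70%, with a range from 0.384% to 94.9%. The top of that range held the tumour necrosis factor gene tnfb and the cathepsin gene ctssb.1 (71.6%), which were high in both reporter libraries. In double-negative cells the C1q genes stood at 0.296% to 0.494% of the mCherry+ FPKM, the macrophage list at a median of 0.447% and mpeg1 at 0.204%. Relative to mpeg1 in the same library, c1qc was at 10.5% in mCherry+, 10.4% in EGFP+ and 25.4% in double-negative cells. In the same order c1qa was at 4.16%, 6.87% and 9.11%, and c1qb at 3.11%, 5.97% and 4.51%. Outside mCherry+ cells these shares rest on C1q values near or below an FPKM of 1. The summed FPKM of the 22 macrophage genes was 13165 in mCherry+, 1411 in EGFP+ and 156 in double-negative cells, and 1 of them, timd4, was listed at 0 in EGFP+ cells. The part of stray macrophage RNA in the low C1q values was not tested.

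**Figure D2:**
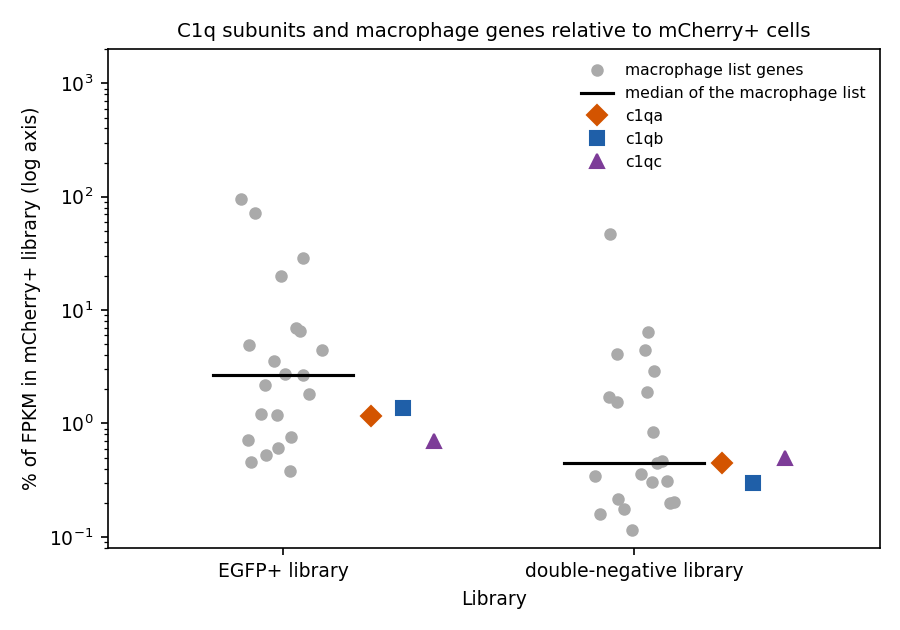
FPKM in the EGFP+ and double-negative libraries as a percentage of the mCherry+ FPKM (log axis), for 21 macrophage genes (grey points, line at the median) and the C1q subunits. In EGFP+ cells the C1q genes (0.703% to 1.37%) lie below the median of 2.70%, and in double-negative cells (0.296% to 0.494%) they lie around the median of 0.447%.

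The remaining cfb and c9 signal in the reporter libraries was set beside liver genes in the same way. In mCherry+ cells cfb stood at 4.19% and c9 at 5.24% of the double-negative FPKM. For 26 liver genes at or above an FPKM of 5 in double-negative cells the median was 4.56%, and 12 of them lay below cfb and 12 above c9. Examples are transferrin (tfa, 3.53%), the fibrinogen gene fgg (3.31%) and the liver fatty acid-binding protein gene fabp10a (10.8%). In EGFP+ cells c9 stood at 7.44%, near the liver median of 8.14%, with 10 of 26 genes below it. There cfb stood at 2.40%, and only the carboxypeptidase gene cpb2 and shbg, which encodes the sex hormone-binding globulin, lay lower, both listed at 0. The summed FPKM of all 32 liver genes found was 181 in mCherry+, 343 in EGFP+ and 3066 in double-negative cells, and 5 of them were listed at 0 in each reporter library. As a share of that liver sum, cfb was at 2.37% in double-negative, 1.69% in mCherry+ and 0.510% in EGFP+ cells. The corresponding shares for c9 were 1.77%, 1.57% and 1.18%. Of the 29 liver genes that reached an FPKM of 1, 27 were at least 4-fold lower in mCherry+ cells than in double-negative cells (7.36% of all genes) and 25 in EGFP+ cells (5.38%). Other tissue lists lay lower in mCherry+ too, with 13 of 14 neuronal, 12 of 17 epidermal and 8 of 14 erythroid genes past 4-fold. In EGFP+ cells 5 of 14 neuronal, 1 of 17 epidermal and 7 of 14 erythroid genes were 4-fold lower. Of 19 muscle genes, 16 lay above the double-negative level in mCherry+ and 17 in EGFP+ cells. Of 50 housekeeping genes, 39 and 41 did so too, so the muscle counts are not read as a difference. At least 4-fold higher were 2 of the 19 in each reporter library, against 8.18% (mCherry+) and 8.53% (EGFP+) of all genes. By that size 0 (mCherry+) and 1 (EGFP+) of the 19 were lower. Of 12 endothelial genes 0 were 4-fold lower in either reporter library, and 2 were 4-fold higher in each. With 7.36% (mCherry+) and 5.38% (EGFP+) of all genes 4-fold lower, a count of 0 in 12 does not set this list apart. The median log2 ratios of the liver genes were −3.26 and −2.85, where the medians of all genes were −0.04 and −0.05. The part of stray liver RNA in the low cfb and c9 values was not tested.

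**Figure D3:**
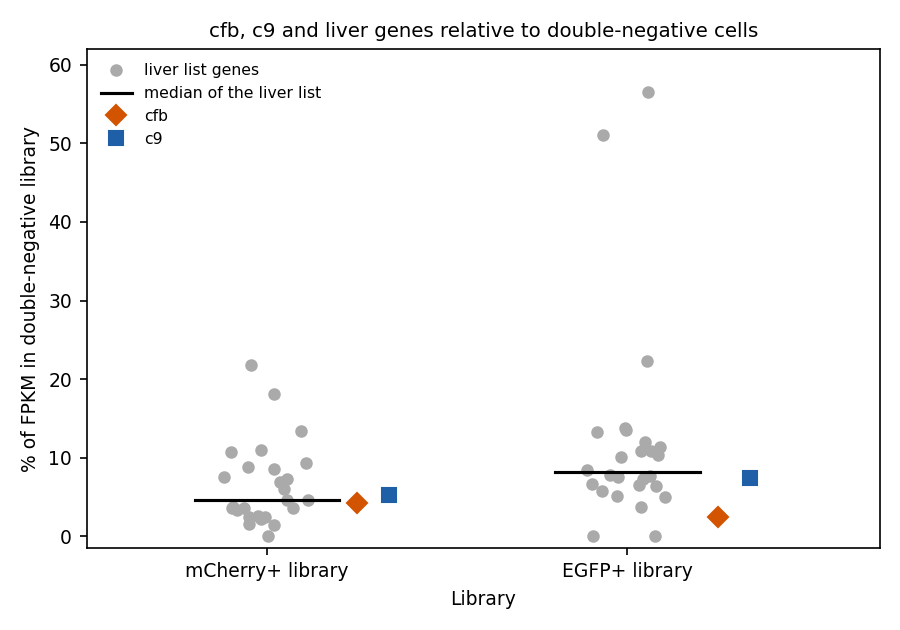
FPKM in the mCherry+ and EGFP+ libraries as a percentage of the double-negative FPKM, for 26 liver genes (grey points, line at the median) and for cfb and c9. In mCherry+ cells cfb (4.19%) and c9 (5.24%) lie at the liver median of 4.56%, and in EGFP+ cells cfb (2.40%) lies below most liver genes.

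The other complement genes were taken from a list of 71 symbols by role, of which 35 genes were found, 10 of them only under an older symbol. Without the 5 genes described above, 23 of the remaining 30 had an FPKM of 1 or above in some library. In mCherry+ over double-negative cells 2 of these 23 passed 4-fold upwards, close to the 8.18% of all genes, and 9 downwards, against 7.36%, with a median log2 ratio of −1.61. In EGFP+ over double-negative cells 3 were at least 4-fold higher, against 8.53% of all genes, and 8 were lower, against 5.38%, with a median of −1.18. The higher genes were 2, 2 and 1 under median-ratio, housekeeping and equal-sum scaling, against 5.99%, 6.18% and 4.46% of all genes. In mCherry+ over EGFP+ cells 1 (cfp) was at least 4-fold higher, against 3.90% of all genes. By that size 3 were lower (cfbl, cfh and c8g), against 3.34% of all genes. Of the 23 genes, 20 thus lay below the double-negative level in mCherry+ and 18 in EGFP+ cells, where the medians of all genes were −0.04 and −0.05. The genes mbl2, masp2, c3b, c3c, c3b.1, c8a, c8b, serping1 and vtnb reached an FPKM of 1 in double-negative cells only. By the filter they could only lie below that level, so the 20 and 18 are not read as a result. The genes past 4-fold upwards before any rescaling were cfp and cfbl, with cfh in EGFP+ cells only. With so few genes, and the C1q genes set aside, no theme is read from them.

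On the classical and lectin routes, the listed values of the other genes were low. A value of 0 in this table may be a gap in the annotation or the quantification, since the proteasome gene psmd7 is listed at 0 in all libraries and the housekeeping gene ppiaa in both reporter libraries. The c1r gene, whose product is a protease of the C1 complex, was listed at 0 in all libraries, and c1s.1 (listed as wu:fb63d09) reached at most an FPKM of 0.756, in mCherry+ cells. The lectin-route protease gene masp2 was at 1.33 in double-negative cells, 0.193 in mCherry+ and 0 in EGFP+ cells. The mannose-binding lectin gene mbl2, listed as hbl3, was at 1.02, 0.159 and 0 in the same order. The genes masp1, hbl1, hbl2 and colec10 of the same group were not analysed here.

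The C3 genes, whose product is the central opsonin of all routes, were highest in double-negative cells. The FPKM of c3a was 20.6 there, 1.28 in mCherry+ and 1.58 in EGFP+ cells. The related gene c3b.2 (listed as si:ch211-140f21.1) was at 14.7, 1.80 and 1.03. All 5 C3 genes that reached an FPKM of 1 lay lower in both reporter libraries. For c3b, c3c and c3b.1 the filter fixed this direction, because they reached 1 in double-negative cells only. Of the 5, 3 (c3a, c3b and c3b.2) were at least 4-fold lower in each, against 3.24% of all genes. The 6 C3 genes found summed to 46.8 in double-negative, 3.97 in mCherry+ and 3.61 in EGFP+ cells. C3 genes are near copies of each other, so reads may have been divided among them and single members are uncertain.

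Of the pore genes that act with c9, c8a, c8b and c8g were also highest in double-negative cells, at lower levels, whereas c6 was not. The FPKM of c8a was 5.31 in double-negative, 0.310 in mCherry+ and 0.328 in EGFP+ cells. The FPKM of c8b was 5.73, 0.137 and 0.395. For c8g it was 7.69 in double-negative and 4.54 in EGFP+ cells, and c8g was listed at 0 in mCherry+ cells. The gene c6 was low throughout, at 1.41, 1.95 and 0.748. With an FPKM of 54.1, c9 was the highest of the 5 terminal genes found in double-negative cells by a wide margin. The symbols c7, c7a and c7b were not matched and were not analysed here.

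The 4 genes found for the alternative route were not all highest in the same library. The gene cfp, listed as si:dkeyp-22b2.3, encodes properdin, which stabilises the C3 convertase. It had an FPKM of 241 in mCherry+, 53.1 in EGFP+ and 9.38 in double-negative cells, above every C1q gene in the mCherry+ library. Its log2 ratio over double-negative cells was 4.55 in mCherry+ and 2.38 in EGFP+ cells. The EGFP+ value was 1.934, 1.975 and 1.471 under median-ratio, housekeeping and equal-sum scaling, below 4-fold in each. The factor B-like gene cfbl, listed as zgc:158446, had an FPKM of 1908 in EGFP+, 55.5 in mCherry+ and 0.397 in double-negative cells. With its EGFP+ value cfbl was number 40 of all genes in that library. Genes used as neutrophil markers were present in mCherry+ cells too. There 13 of 18 were at least 4-fold above double-negative cells, against 8.18% of all genes. The 19 such genes found summed to an FPKM of 51287 in EGFP+, 3466 in mCherry+ and 130 in double-negative cells. The part of stray neutrophil RNA in the mCherry+ cfbl value was not tested. In GRCz12tu, cfb, a second factor B gene named bfb and cfbl are neighbours. The FPKM of bfb was 2.90 in double-negative cells and 0.622 in EGFP+ cells, and it was listed at 0 in mCherry+ cells. The factor B genes cfb and cfbl thus had opposite orders, with log2 ratios of EGFP+ over double-negative cells of −4.75 and 10.4. They are paralogs, so a share of reads may have been divided between them, which was not tested. The gene cfd, which encodes the protease that cleaves factor B, was at 40.6 in double-negative, 24.0 in mCherry+ and 16.3 in EGFP+ cells, less than 4-fold apart.

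Of 8 regulator genes that reached an FPKM of 1, 3 were at least 4-fold below double-negative cells in both reporter libraries. These were vtna, vtnb and cfhl4, against 3.24% of all genes. The vitronectin gene vtnb, whose product blocks pore insertion, had an FPKM of 29.0 in double-negative, 0.428 in mCherry+ and 0.473 in EGFP+ cells. The FPKM of vtna was 34.6, 1.28 and 2.86, and that of the factor H-like gene cfhl4 was 49.5, 2.1 and 3.2. Factor H itself, the inhibitor of the C3 convertase, went another way: cfh was at 53.8 in EGFP+, 8.27 in double-negative and 1.46 in mCherry+ cells. In EGFP+ cells cfh and cfbl were at least 4-fold above both other libraries, as were 2.29% of all genes. The log2 ratio of cfh in EGFP+ over double-negative cells was 2.56, and 1.66 at equal FPKM sums. Genes of the factor H family resemble each other, and RefSeq gives cfhl2 as a synonym of cfhl4, so single members are uncertain. The factor H-like genes cfhl1 (1.46 in EGFP+, 0.586 in double-negative and 0.0588 in mCherry+ cells) and cfhl2 (3.08, 1.55 and 0.262) were low. Clusterin (clu), at 14.0, 13.3 and 8.06 in double-negative, EGFP+ and mCherry+ cells, was less than 4-fold apart. So was c1qbp, listed as zgc:110137, a mitochondrial protein gene named for binding C1q, at 34.5, 27.7 and 28.2. Of 10 receptor symbols only c1qbp was matched, and the others were not analysed here.

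**Figure D4:**
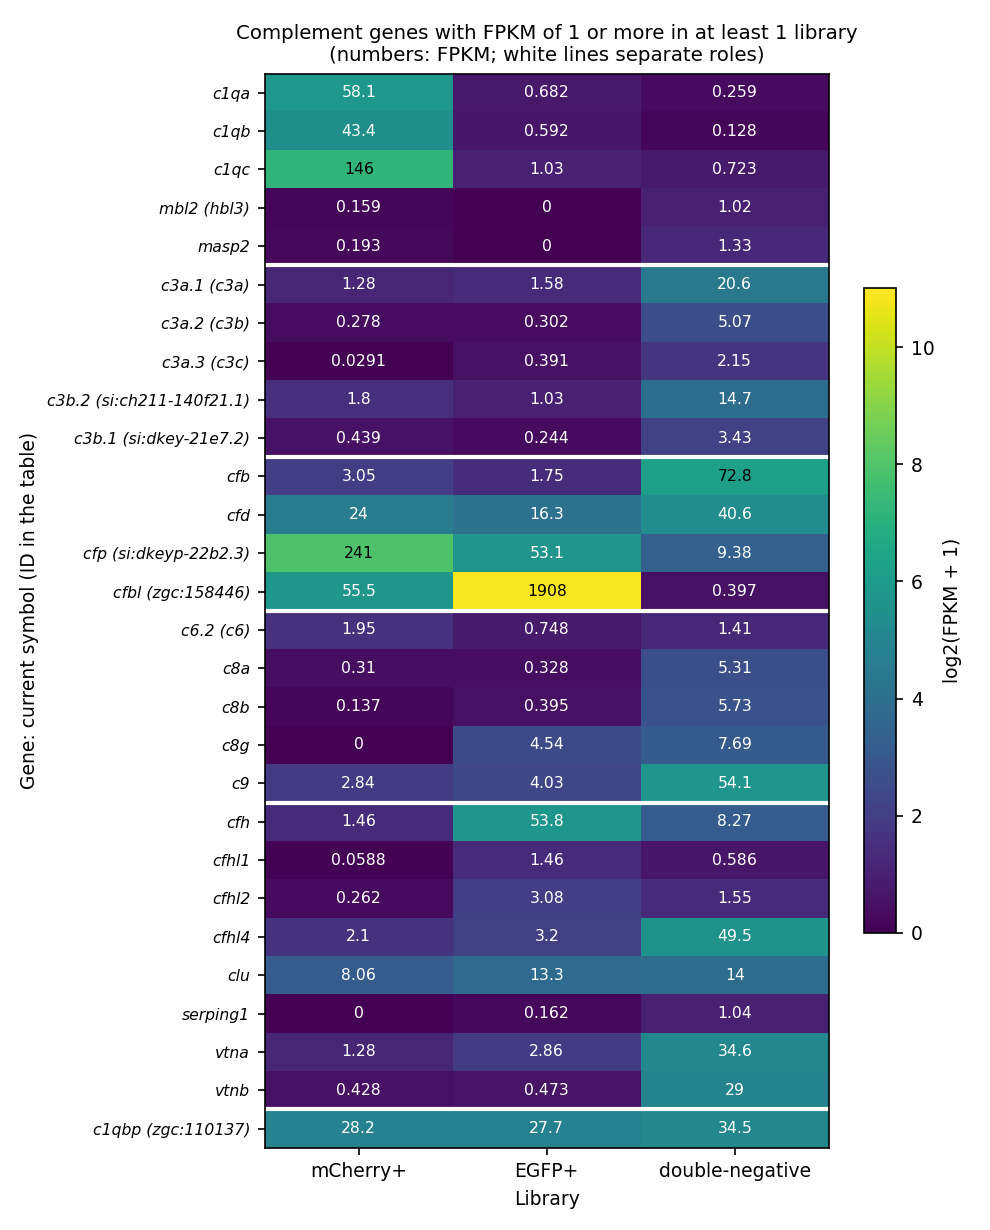
FPKM of the 28 complement genes that reached an FPKM of 1, by role; colour is log2(FPKM + 1) and each cell prints the FPKM. The C1q genes and cfp are brightest in mCherry+ cells, cfbl (1908) and cfh (53.8) in EGFP+ cells, and cfb (72.8), c9 (54.1) and cfhl4 (49.5) in double-negative cells.

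The C1q domain also occurs in proteins outside complement. Of 44 symbols 22 genes were found, but 1 of them, listed as c1qtnf3, has the current RefSeq symbol amacr, a racemase gene, and is left out here. Of the other 21, 15 reached an FPKM of 1. In mCherry+ over double-negative cells 0 of 15 passed 4-fold upwards, against 8.18% of all genes, and 3 passed downwards, against 7.36%, with a median log2 ratio of −1.09. At that background the count of 0 does not set these genes apart. The lowest were the cerebellin genes cbln2b (FPKM 0.859 against 20.0) and cbln1 (0.895 against 9.74), which encode synaptic organisers, and the cartilage collagen gene col10a1 (1.67 against 21.6). The highest ratio among genes at or above an FPKM of 5 in either library was that of mmrn2a (4.63 against 5.18). With 1 library each, and no test, these counts describe the libraries alone.

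Genes with a profile most like each set were named by the distance between log2(FPKM + 1) values over the 3 libraries. The search covered genes that reached an FPKM of 10. It left out genes listed under clone, locus or microRNA names, as cfp and cfbl are, so a nearer gene may be among those. The 5 nearest to the C1q mean were the chemokine receptor gene ccr12.3, fgl2, thap1, the toll-like receptor gene tlr21 and slc45a3. Their FPKM in mCherry+ cells lay between 47.9 and 98.7, and their distances between 0.51 and 0.85. The C1q genes themselves lay at 0.32 (c1qa), 0.77 (c1qb) and 1.1 (c1qc) from their mean, so c1qc was farther from it than any of the 5. The 5 nearest to the mean of cfb and c9 were the antiprotease gene serpina1, the fatty acid-binding protein gene fabp1b.1, elovl1a, which encodes a fatty acid elongase, cfhl4 and the urate oxidase gene uox. Their FPKM in double-negative cells lay between 49.5 and 76.8, with distances between 0.28 and 0.54, and cfb and c9 each lay at 0.49. With 3 libraries such a likeness can be shared by many genes.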

How the data were processed

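Sorted cells of 3 populations gave 1 library each. Per the labels' protocols, Trizol LS was used for extraction, ribosomal RNA was depleted, and 50 ng of RNA was the input of a SMARTer low-input preparation sequenced on Illumina. The genome build danRer7, Cufflinks 2.2.1, TopHat2 2.0.11 and cutadapt are named, per the submitters' processing notes; how they were set is not given in the sources used here. In 1 table the authors deposited an FPKM for each gene and library. Because FPKM is relative, genes that take many fragments depress the rest. The gene rn7sk held 8.45% to 10.5% of each FPKM sum. FPKM is corrected for length, so this is not its share of fragments, which is unknown.

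From these values log2(FPKM + 1) ratios, counts past 4-fold, ranks and percentages were computed with Python 3.11.15 and pandas 2.3.3, and the steps were tested on simulated data. Genes needed an FPKM of 1 in at least 1 library. Steps of whole reads were searched in 219 to 329 low genes per pair of libraries. No bin of ratios held more than 3.28% of them, so depth stayed unknown. The 18 gene lists held 405 entries, of which 306 matched, 39 through older symbols; 13895 table IDs matched RefSeq GRCz12tu, used for names and gene order only. The members, lists and named-gene rule were chosen with earlier results of these data known. Named genes were the 5 members, measured complement genes, the 5 nearest profiles to each set, and up to 4 highest and lowest members of other lists. Clone, locus and microRNA names were left out of the search for nearest profiles. Chosen after their values were seen were bfb, rn7sk, psmd7, ppiaa and the liver and macrophage examples. No sequence is printed. Alternatives were pseudocounts of 0.1 and 5, 3 scalings, other filters and thresholds of 2-fold and 8-fold.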

Additional observations from a re-analysis of the deposited data

How the results depend on the processing

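With 1 library per population no replicate could be left out. No paired analysis was possible because each group has 1 library. No recomputed log2 value of 4-fold or more changed sign, but none could have done so. Pseudocounts and filters keep the sign, and the largest scaling shift, 0.97 on the log2 scale, is smaller than 4-fold. A log2 value was counted as moved when it shifted by more than the housekeeping standard deviation. That was 0.80, 0.76 and 0.56 for mCherry+ over double-negative, EGFP+ over double-negative and mCherry+ over EGFP+. A count was moved when it changed by over 1.5 times. Of 177 recomputed main values 142 did not move, but these include values that had no way to move. All 21 without a filter were fixed, because a gene below an FPKM of 1 in every library cannot reach 4-fold. The C1q, cfb and c9 log2 values were also fixed under the higher minimum FPKM, which each of these genes exceeds in some library. The 142 is therefore not read as a measure of stability. The 3 scalings shifted all log2 ratios: median-ratio scaling removed 0.37, 0.48 and −0.10 in the order above, and equal FPKM sums removed 0.68, 0.97 and −0.29. Calls over all genes were 52.6% higher in mCherry+ over double-negative cells, and 36.3%, 35.4% and 26.2% under median-ratio, housekeeping and equal-sum scaling. For EGFP+ over double-negative cells they were 61.3%, then 36.4%, 38.2% and 19.8%.

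With a pseudocount of 0.1 the C1q median was 7.47 (mCherry+ over double-negative) and 6.22 (mCherry+ over EGFP+). C1q minus cfb and c9 was then 11.8, 5.63 (EGFP+ over double-negative) and 6.08 (mCherry+ over EGFP+). Lower complement genes were 19 in the first comparison (11 as reported) and 5 in the last (3 as reported), and 1 liver gene was higher in the last. With a pseudocount of 5 the C1q medians were 3.58 and 3.47, the cfb and c9 means −3.09 (mCherry+ over double-negative) and −3.12 (EGFP+ over double-negative), and the differences 6.68, 3.23 and 3.45. Lower complement genes were 6 and 5, lower liver genes 16 in mCherry+ over double-negative and 0 in mCherry+ over EGFP+. Equal FPKM sums gave a cfb and c9 mean of −4.95 in EGFP+ over double-negative cells, 1 higher complement gene there (3 as reported) and 1 lower liver gene in mCherry+ over EGFP+. A minimum FPKM of 10 left 7 lower complement genes in the first comparison and 1 lower liver gene in the last. At 2-fold, mCherry+ over EGFP+ had 5 lower complement genes and 1 higher and 9 lower liver genes. At 8-fold, lower complement genes were 7 and 6 and lower liver genes 17, 14 and 0, with 1 higher complement gene in EGFP+ cells. With table IDs only, an alternative chosen after seeing the data, higher complement genes were 3 in mCherry+ and 1 in EGFP+ over double-negative cells. Apart from pseudocounts, filters and thresholds acting by construction, the cause was not tested.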

Other observations

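Acute-phase genes, which the liver raises in inflammation in mammals, gave a mixed picture beside cfb and c9. Of 22 symbols 14 genes were found and 11 reached an FPKM of 1; 6 were at least 4-fold lower in mCherry+ and 5 in EGFP+ than in double-negative cells, against 7.36% and 5.38% of all genes. The antiprotease gene serpina1 was at an FPKM of 60.3 in double-negative, 2.75 in mCherry+ and 3.45 in EGFP+ cells. The table listed hepcidin, whose product is known in mammals to regulate iron export, as hamp1 and hamp2, which GRCz12tu joins under 1 symbol. The FPKM of hamp2 was 30.4 in double-negative, 0.0149 in mCherry+ and 0.000166 in EGFP+ cells, and that of hamp1 was 29.4, 28.4 and 4.77, so the division of reads between these entries is uncertain. The serum amyloid gene saa was at 5.19 in mCherry+, 1.08 in double-negative and 0 in EGFP+ cells. The intelectin gene itln1, a lectin gene, was at 54.4 in EGFP+ and 0.311 in mCherry+ cells and was listed at 0 in double-negative cells.

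Gut and pancreas genes lay low in the reporter libraries as the liver genes did. Of 18 that reached an FPKM of 1, 12 were at least 4-fold lower in mCherry+ and 11 in EGFP+ than in double-negative cells, against 7.36% and 5.38% of all genes, and their summed FPKM was 532 in double-negative, 68.9 in mCherry+ and 79.2 in EGFP+ cells. The insulin gene ins differed, at 14.2 in mCherry+ and 10.03 in double-negative cells and listed at 0 in EGFP+ cells.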
